A study of Mus musculus with 6 samples.

Results

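Thalamic neuron genes were followed through 6 brain RNA libraries, 3 from wild-type (WT) mice and 3 from Sgo1-/+ mice, each from a single mouse. The genes are Tcf7l2, Lef1, Rora, Prkcd, Plekhg1, Rgs16, Ntng1, Calb2 and Synpo2, and they were found by their symbol in the deposited gene table. The 9 symbols gave 10 of its 38087 rows, because Ntng1 is listed in 2 rows. They were selected on their counts in these same 6 libraries, so their levels and differences are given as a description, without a test. All 6 mice were 24 months old, were kept without treatment and had a C57BL6 background. The Sgo1-/+ mice were heterozygous for the loss of Sgo1, a protector of cohesin on chromosomes. The males were WT replicate 1 and Sgo1-/+ replicate 2, the remaining 4 mice being females. RNA came from frozen cerebrum with cortex and hippocampus, from which olfactory bulb, cerebellum and medulla had been removed, and the methods name no separate step for the thalamus. WT libraries were sequenced in run 258 and Sgo1-/+ libraries in run 259, so genotype and run cannot be told apart. Values are given in the order of the replicate numbers, 1 to 3. The comparison asks which genes differ between old Sgo1-/+ and WT brains.

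The thalamus lies deep in the forebrain and relays sensory and motor signals to the cortex through glutamate-releasing projection neurons. The identity of these neurons in the adult is held by transcription factors, among which the LEF/TCF proteins act with beta-catenin in the Wnt pathway and can also act without it. None of the 9 genes is used by the thalamus alone. Rora and Calb2 are also used in the cerebellum, Tcf7l2 also in young oligodendrocytes, Calb2 also in interneurons and olfactory bulb, and Synpo2 also in smooth muscle.

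Since Tcf7l2, Lef1 and Rora are DNA-binding factors, the 250 bases before the RefSeq start sites (GRCm38.p6) were searched for the letters they are known to bind. The RefSeq table held 13 such windows for 8 of the 9 genes. CTTTGAT, the LEF/TCF letters, and TAGGTCA or TGGGTCA, the ROR letters, were searched on both strands, and 0 of the 8 genes held either. Among all 27025 genes of that table, 3.72% held the LEF/TCF letters in any of their windows and 6.15% the ROR letters. The windows of Synpo2 and Plekhg1 are shown as examples. Both genes were highest in the same library, and no annotated exon lies in these bases. Prkcd, Tcf7l2 and Lef1 also had such windows, which are not shown. The 13 CG pairs of the Synpo2 window and the 3 of the Plekhg1 window are in capitals. The first lies at chr3:123236150-123236399 on the minus strand, directly before the gene, and the second at chr10:3872417-3872666 on the plus strand, within the span of Plekhg1 in the table.
Synpo2: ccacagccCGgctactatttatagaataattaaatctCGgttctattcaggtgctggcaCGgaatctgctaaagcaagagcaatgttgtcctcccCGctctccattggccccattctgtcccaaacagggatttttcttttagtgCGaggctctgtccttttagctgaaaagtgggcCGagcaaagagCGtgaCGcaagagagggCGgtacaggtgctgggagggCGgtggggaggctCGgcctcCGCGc
Plekhg1: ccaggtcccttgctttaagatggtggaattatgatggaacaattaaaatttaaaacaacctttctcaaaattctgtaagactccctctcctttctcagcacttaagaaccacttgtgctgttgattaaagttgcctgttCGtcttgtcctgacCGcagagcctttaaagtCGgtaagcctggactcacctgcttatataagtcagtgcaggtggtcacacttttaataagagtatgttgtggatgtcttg

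Total estimated counts were 11123917 to 12505561 per library. Sgo1 itself, listed as Sgol1, never passed 7 estimated counts, with normalized counts of 2.22 ± 3.85 in WT against 2.00 ± 1.99 in Sgo1-/+ (SD, n = 3 each), so the loss of an allele was not detectable at this depth. A library with 0 counts of a gene may hold up to 3, and this limit covers counting error only. A pair of libraries stood apart. In WT replicate 1, most marker genes of cerebellum and brain stem were at their highest, in Sgo1-/+ replicate 3 most of those of hippocampus, and in both the genes of choroid plexus were high. The members' differences are therefore given with and without these libraries. In such bulk RNA, fewer cells of a type and less RNA per cell cannot be told apart.

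Most thalamic neuron genes had their highest level in 1 library, Sgo1-/+ replicate 3. This was so for 7 of the 9 genes, all but Rora and Calb2, beside 12.9% of all 16337 genes tested. In that library 7 of the 9 lay at least 2-fold above their median over the 6 libraries, beside 1.08% of all genes, and the median of their log2 ratios to the 6-library median was 1.56. In the other 5 libraries this median was between −0.20 and 0.24. WT replicate 1 was highest for the remaining 2 genes, Rora and Calb2, beside 28.0% of all genes. In it 2 genes, Tcf7l2 and Calb2, lay at least 2-fold above their median, beside 3.89% of all genes. WT replicate 3 was lowest for 4 genes, beside 15.0% of all genes. These counts describe the members and were not tested.

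**Figure D1:**
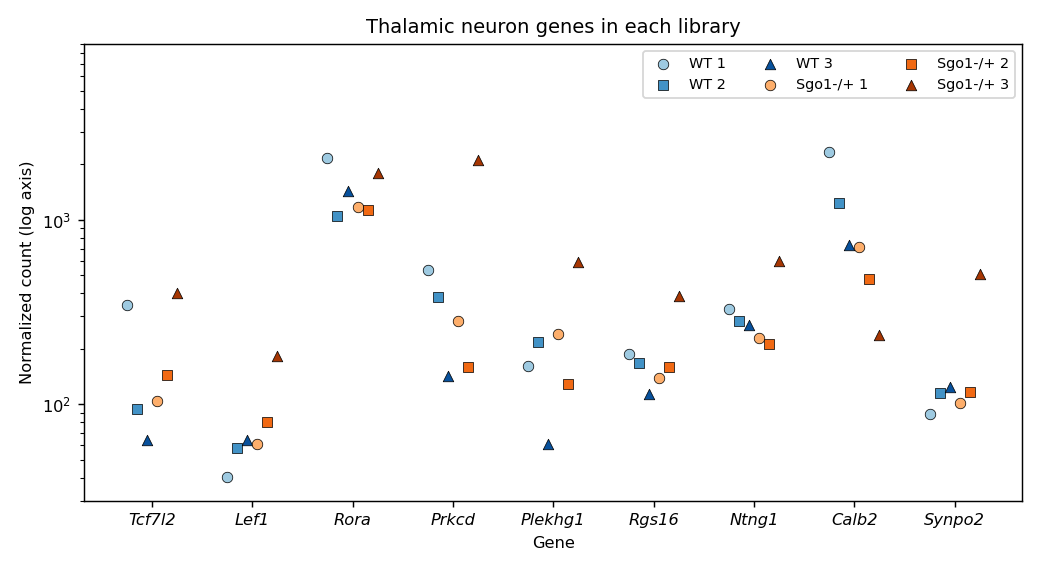
Normalized counts of the 9 thalamic neuron genes (log axis) in each of the 6 libraries, 1 point per library. Sgo1-/+ replicate 3 is the highest point for 7 genes, with 2114 for Prkcd and 508 for Synpo2, and the lowest for Calb2.

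Tcf7l2 (ENSMUSG00000024985, chromosome 19 of mm10 from 55741810 to 55933654, plus strand) encodes a transcription factor of the LEF/TCF family that maintains thalamic neurons. It had 347, 94.3 and 63.9 normalized counts in the WT libraries and 104, 144 and 402 in the Sgo1-/+ libraries. WT replicate 1 and Sgo1-/+ replicate 3 were both high, the other 4 libraries were low, and the groups overlapped. Its mean was 169 ± 156 in WT against 217 ± 162 in Sgo1-/+ (SD, n = 3 per group). Lef1 (ENSMUSG00000027985, chromosome 3 of mm10 from 131110471 to 131224356, plus strand), the closest relative of Tcf7l2 in the set, had 40.3, 58.1 and 63.9 normalized counts in the WT libraries and 60.6, 80.0 and 183 in the Sgo1-/+ libraries. Unlike Tcf7l2, it was lowest in WT replicate 1, and Sgo1-/+ replicate 3 was 2.29 times the next highest library, Sgo1-/+ replicate 2. Its mean was 54.1 ± 12.3 in WT against 108 ± 65.9 in Sgo1-/+ (SD, n = 3 per group). The antisense gene Gm43352 overlaps exons of Lef1, and since strand use in the counting is not given, reads of the pair may have been shared.

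Rora (ENSMUSG00000032238, chromosome 9 of mm10 from 68653786 to 69388246, plus strand) encodes a nuclear receptor used by thalamic relay neurons and by Purkinje cells. It had 2165, 1048 and 1440.5 normalized counts in the WT libraries and 1170.3, 1129.7 and 1786 in the Sgo1-/+ libraries. WT replicate 1 was highest and Sgo1-/+ replicate 3 second, the groups overlapped, and the range was the narrowest of the 9 genes at 2.07-fold from the lowest to the highest library. Its mean was 1551 ± 567 in WT against 1362 ± 368 in Sgo1-/+ (SD, n = 3 per group). The antisense gene Gm15511 overlaps an exon of Rora. Beside the high value in WT replicate 1, the 8 tested Purkinje cell genes were all highest in that library, and the summed normalized count of the 9 genes on that list was 33390.5 there and 11699 to 14909.7 in the other 5. Their part in the level of Rora was not tested.

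Prkcd (ENSMUSG00000021948, chromosome 14 of mm10 from 30595356 to 30626210, minus strand) encodes protein kinase C delta, an enzyme abundant in thalamic relay neurons and in the central amygdala. It had 537, 379.9 and 142 normalized counts in the WT libraries and 283, 159 and 2114 in the Sgo1-/+ libraries. The third Sgo1-/+ library was far above the rest, at 3.94 times the next highest library and 9.56 times the mean of the other two Sgo1-/+ libraries, and it held 82.7% of the Sgo1-/+ sum. Its mean was 353 ± 199 in WT against 852 ± 1094 in Sgo1-/+ (SD, n = 3 per group), with an SD larger than the mean in Sgo1-/+. Within WT alone the libraries spanned 3.78-fold, so the spread was not confined to one genotype.

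Plekhg1 (ENSMUSG00000040624, chromosome 10 of mm10 from 3740364 to 3967303, plus strand) encodes an activator of small GTPases that act on the actin cytoskeleton. It had 161, 218 and 60.9 normalized counts in the WT libraries and 240.4, 129.7 and 593 in the Sgo1-/+ libraries. The highest library was Sgo1-/+ replicate 3 and the lowest WT replicate 3, 9.75-fold apart, and the other 4 libraries of both groups lay between and overlapped. Its mean was 147 ± 79.6 in WT against 321 ± 242 in Sgo1-/+ (SD, n = 3 per group). Rgs16 (ENSMUSG00000026475, chromosome 1 of mm10 from 153740349 to 153745468, plus strand) encodes a regulator that shortens signalling by G proteins. It had 187, 168 and 114 normalized counts in the WT libraries and 139, 159 and 386 in the Sgo1-/+ libraries. Again Sgo1-/+ replicate 3 was on top, at 2.06 times the next highest library, WT replicate 1, and the groups overlapped. Its mean was 156 ± 38.2 in WT against 228 ± 137 in Sgo1-/+ (SD, n = 3 per group). The antisense gene Gm28513 overlaps exons of Rgs16.

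Ntng1 (ENSMUSG00000059857, chromosome 3 of mm10 from 109780040 to 110135508, minus strand) encodes netrin-G1, a membrane-anchored protein on thalamocortical axons that binds the postsynaptic protein NGL-1. It had 327, 284 and 271 normalized counts in the WT libraries and 229, 214 and 598 in the Sgo1-/+ libraries. The peak in Sgo1-/+ replicate 3 was 1.83 times WT replicate 1, the next highest. The other 5 libraries were within 1.53-fold of each other, with the other two Sgo1-/+ libraries below all 3 WT libraries. Its mean was 294 ± 29.6 in WT against 347 ± 217 in Sgo1-/+ (SD, n = 3 per group). The further row named Ntng1 (ENSMUSG00000050836, chromosome 3 from 110143685 to 110144011) reached no more than 8.47 estimated counts and was removed by the filter on low counts, so 9 of the 10 rows were fitted.

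Synpo2 (ENSMUSG00000050315, chromosome 3 of mm10 from 123076519 to 123236149, minus strand) encodes synaptopodin 2, an actin-binding protein. It had 88.6, 115 and 124 normalized counts in the WT libraries and 102, 117 and 508 in the Sgo1-/+ libraries. The 5 libraries other than Sgo1-/+ replicate 3 lay within 1.40-fold of each other in both genotypes, and Sgo1-/+ replicate 3 was 4.11 times the next highest of them, the largest such step among the 9 genes. Its mean was 109 ± 18.3 in WT against 242 ± 231 in Sgo1-/+ (SD, n = 3 per group). Of 6 genes tested of smooth muscle, which also uses Synpo2, 1 was highest in Sgo1-/+ replicate 3, and the summed normalized count there of the 7 genes on the list was 473, within the 397 to 506 of the other 5. Their part in the level of Synpo2 was not tested.

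Calb2 (ENSMUSG00000003657, chromosome 8 of mm10 from 110142539 to 110168206, minus strand) encodes calretinin, a calcium-binding protein of midline thalamic neurons, cerebellar granule cells, olfactory bulb neurons and a class of interneurons. It went against the other members. It had 2346, 1228 and 734 normalized counts in the WT libraries and 709, 477 and 236 in the Sgo1-/+ libraries. Its lowest library was Sgo1-/+ replicate 3 and its highest WT replicate 1, 9.93-fold apart, and the lowest WT library lay just above the highest Sgo1-/+ library, so that the groups did not overlap. Among all genes tested, 3.57% had all 3 Sgo1-/+ libraries below all 3 WT libraries. The reverse, all 3 Sgo1-/+ libraries above, held for 0 members and for 3.24% of all genes. Its mean was 1436 ± 826 in WT against 474 ± 236 in Sgo1-/+ (SD, n = 3 per group). Lists of other cells that use Calb2 each had their own order of libraries. The summed normalized count of 11 cerebellar granule cell genes, without Calb2, was 21395 in WT replicate 1 and 4266 to 5492 in the other 5 libraries. That of 9 olfactory bulb genes was 707, 2345 and 1822 in the WT libraries and 1295, 525 and 234 in the Sgo1-/+ libraries, with 5 of the 9 lowest in Sgo1-/+ replicate 3. That of 9 interneuron genes was 13283 in Sgo1-/+ replicate 3, 13434 in WT replicate 1 and up to 18046 in the others. Of these 9 genes, 7 were lowest in WT replicate 1 and 1 in Sgo1-/+ replicate 3. By these sums, the granule cell list shared its highest library with Calb2 and the olfactory bulb list its lowest. The interneuron sum was lowest in the same library as Calb2 by a narrow margin only. In WT replicate 1, where Calb2 was highest, the olfactory bulb and interneuron lists were low. Their part in the level of Calb2 was not tested.

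**Figure D2:**
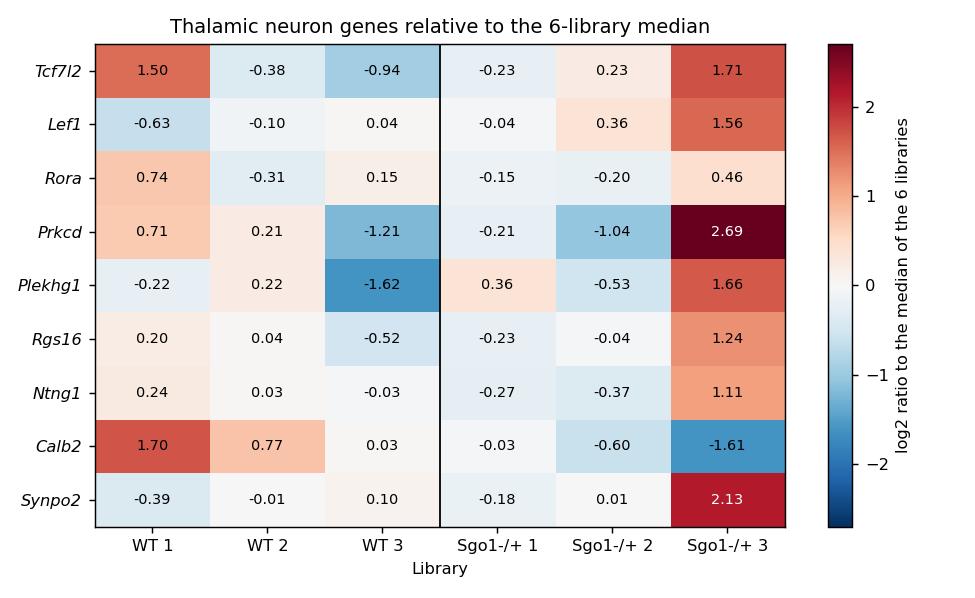
Log2 ratio of each thalamic neuron gene to its median over the 6 libraries, with genes in rows and libraries in columns, WT left of the line and Sgo1-/+ right of it. The last column is red for 8 genes, from 0.46 for Rora to 2.69 for Prkcd, and blue for Calb2 at −1.61.

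The genotype comparison was fitted over 16337 genes by the quasi-likelihood method of edgeR, with p-values adjusted by Benjamini-Hochberg. It called 0 genes at an adjusted p under 0.05, which is 0% of those tested, and thus none of the 9 members. An unadjusted p under 0.05 was found for 333 genes (2.04%), and DESeq2's Wald test called 3 genes after adjustment, of which none was a member or another gene of the thalamus list. As a description, the log2 fold change of Sgo1-/+ against WT was above 0 for 7 of the 9 members, beside 49.8% of all genes, with a median of 0.54 beside 0.00 for all genes. It was 1.27 (SE 0.976) for Prkcd, 1.15 (SE 0.623) for Synpo2, 1.13 (SE 0.638) for Plekhg1 and 0.99 (SE 0.445) for Lef1. It was 0.54 (SE 0.418) for Rgs16, 0.36 (SE 0.743) for Tcf7l2, 0.24 (SE 0.397) for Ntng1, −0.19 (SE 0.297) for Rora and −1.60 (SE 0.519) for Calb2. On this log2 scale the SE was over 0.5 for Prkcd, Tcf7l2, Plekhg1, Synpo2 and Calb2.

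One library set the direction for much of the set. Without Sgo1-/+ replicate 3, the median log2 fold change of the 9 genes was −0.41, and 3 genes stayed above 0. Without it Prkcd was at −0.67, Tcf7l2 at −0.44, Ntng1 at −0.41 and Rgs16 at −0.07, all with the opposite sign, and Synpo2 was at 0.00. Lef1 (0.38) and Plekhg1 (0.33) kept their direction at a smaller size, and Calb2 was at −1.28. Without WT replicate 1, the median was 0.82, Tcf7l2 was at 1.45, Rora at 0.13 and Calb2 at −1.05. Without WT replicate 3, Tcf7l2 was at −0.02. With both WT replicate 1 and Sgo1-/+ replicate 3 left out, an alternative chosen after seeing the data, the median was −0.11, and 4 of the 9 genes were above 0. Then Tcf7l2 was at 0.65, Plekhg1 at 0.40, Lef1 at 0.20, Synpo2 at −0.13 and Calb2 at −0.73.

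**Figure D3:**
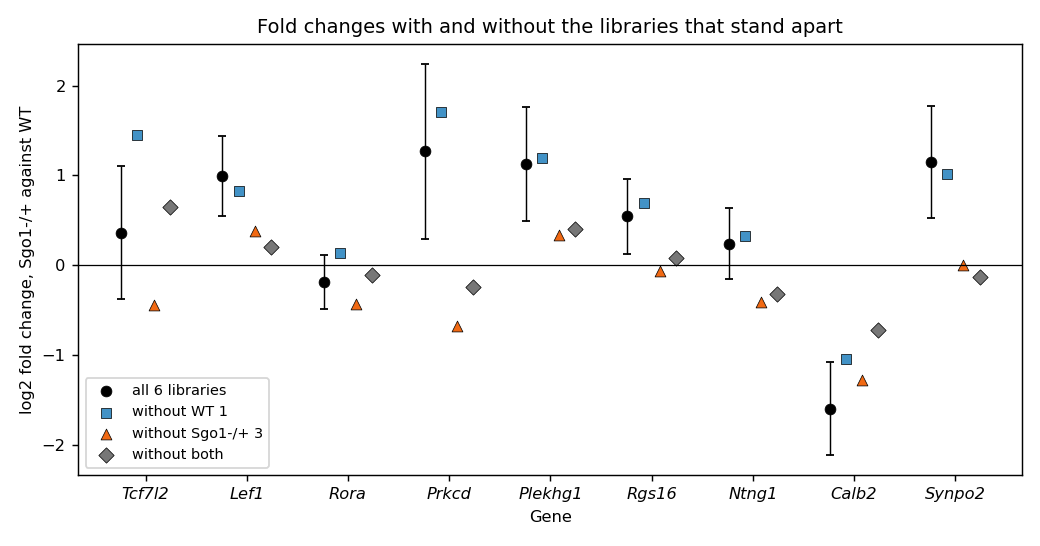
Log2 fold change of Sgo1-/+ against WT for each thalamic neuron gene in 4 fits of the counts, with all 6 libraries (bars show the SE) and without the libraries named in the key. Prkcd moves from 1.27 with all libraries to −0.67 without Sgo1-/+ replicate 3, and Calb2 lies below 0 in all 4 fits.

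To compare levels between genes, normalized counts were divided by the length of annotated exon in kb, and the values are means ± SD over the 6 libraries. Calb2 was the most abundant at 548 ± 434, followed by Rora at 111 ± 33.6, Prkcd at 109 ± 136 and Rgs16 at 82.1 ± 42.0. Ntng1 (38.9 ± 17.2), Plekhg1 (26.8 ± 21.4) and Tcf7l2 (22.0 ± 16.5) were intermediate, and Synpo2 (13.4 ± 12.5) and Lef1 (9.22 ± 5.87) the lowest. For each pair of neighbours in this order the ranges over libraries overlapped. Within libraries, Rgs16 was above Ntng1 in 6 of 6, Ntng1 above Plekhg1 in 6, but Prkcd above Rgs16 in only 2 and Plekhg1 above Tcf7l2 in 3. The place of Prkcd rests on Sgo1-/+ replicate 3, where it reached 381 per kb against a median of 59.8.

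A list of 16 other genes of thalamic projection neurons split between both libraries that stood apart. The edgeR fit called 0 of the 16, after adjustment over the 16337 genes, and 0 had an unadjusted p under 0.05. DESeq2's Wald test also called 0 of them. Of the 16, 7 had a log2 fold change above 0 and 9 below, with a median of −0.16, and of 0.39 with WT replicate 1 left out, −0.36 with Sgo1-/+ replicate 3 left out and −0.04 when neither was used. Sgo1-/+ replicate 3 was highest for 6 of them, beside 12.9% of all genes, and WT replicate 1 for 7, beside 28.0% of all genes. The median log2 ratio to the 6-library median was 0.50 in the first and 0.32 in the second, and between −0.13 and 0.02 in the other 4.

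Adarb1, Plcb4 and Slc17a6 were among the 4 most abundant of these genes per kb of exon. Adarb1, an RNA-editing enzyme, had 4113, 3126 and 3561 normalized counts in the WT libraries and 2963, 2692 and 4644 in the Sgo1-/+ libraries. It was highest in Sgo1-/+ replicate 3 and next in WT replicate 1. Slc17a6, the vesicular glutamate transporter of thalamic and many hindbrain neurons, had 2134, 390.4 and 383 normalized counts in the WT libraries and 378, 574 and 902 in the Sgo1-/+ libraries. WT replicate 1 was more than 2-fold above all others and Sgo1-/+ replicate 3 came second. Plcb4, a phospholipase C that acts after glutamate receptors, had 2589, 984 and 1183 normalized counts in the WT libraries and 1044, 969.6 and 1603 in the Sgo1-/+ libraries, with the same pair of libraries on top. Plcb4 is also used by Purkinje cells.

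Hcn4, a pacemaker channel, was the one gene of this list whose groups did not overlap, beside 6.81% of all genes tested in either direction. It had 99.7, 96.2 and 80.1 normalized counts in the WT libraries and 63.6, 78.0 and 57.3 in the Sgo1-/+ libraries. All WT values lay above all Sgo1-/+ values, by a narrow margin between WT replicate 3 and Sgo1-/+ replicate 2. Its log2 fold change was −0.47 (SE 0.211, unadjusted p = 0.0610, adjusted p = 0.9999, edgeR, adjusted by Benjamini-Hochberg). Ramp3, a partner of calcitonin-family receptors, and Tnnt1, a troponin, were singled out after their values were seen. They were chosen for a peak in Sgo1-/+ replicate 3, which Prkcd and Synpo2 also had. Ramp3 had 67.5, 107 and 70.0 normalized counts in the WT libraries and 82.5, 90.2 and 423 in the Sgo1-/+ libraries. Tnnt1 had 24.2, 59.0 and 45.6 normalized counts in the WT libraries and 42.7, 41.5 and 198 in the Sgo1-/+ libraries. For both, Sgo1-/+ replicate 3 was 3.36 to 3.96 times the next highest library, while WT replicate 1 was the lowest. WT replicate 1 was also the lowest for Synpo2, but it was the second highest for Prkcd.

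**Figure D4:**
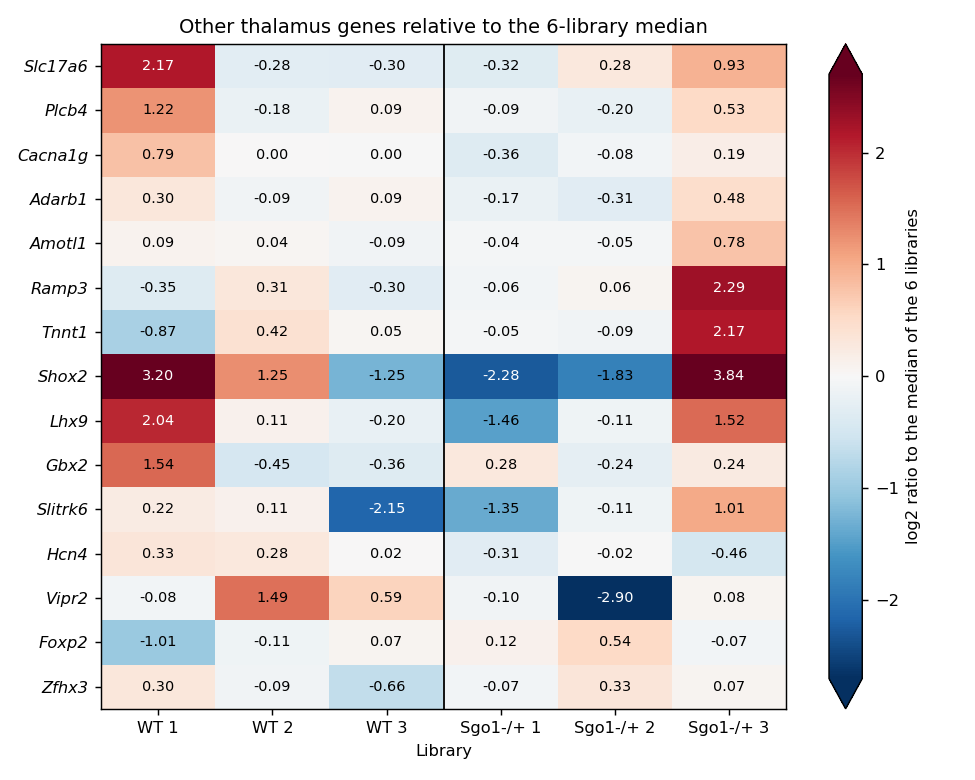
Log2 ratio of other thalamus genes to their median over the 6 libraries, with genes in rows and libraries in columns, WT left of the line and Sgo1-/+ right of it. The first column is high for Slc17a6 (2.17) and the last for Ramp3 (2.29) and Tnnt1 (2.17), while Shox2 is high in both (3.20 and 3.84, past the end of the colour scale).

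Of 18 relatives and binding partners, 17 were tested, 0 were called and 4 were highest in Sgo1-/+ replicate 3, with a median log2 ratio there of 0.01. Their median log2 fold change was 0.34, with 12 above 0 and 5 below. Ntng2, the paralog of Ntng1, had 119, 97.1 and 223 normalized counts in the WT libraries and 188, 259 and 247 in the Sgo1-/+ libraries. It was low in WT replicates 1 and 2 and at similar levels in the other 4 libraries. Lrrc4c, which encodes NGL-1, the partner of netrin-G1, had 606, 1396 and 1956 normalized counts in the WT libraries and 1437, 1491 and 1428 in the Sgo1-/+ libraries, and it was lowest in WT replicate 1 and showed no peak in Sgo1-/+ replicate 3.

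Rorb, a receptor related to Rora and used in layer 4 of cortex and in thalamus, had 267, 286 and 546 normalized counts in the WT libraries and 334, 453 and 635 in the Sgo1-/+ libraries. It was highest in Sgo1-/+ replicate 3, followed by WT replicate 3. Of the other LEF/TCF genes, Tcf7 had 28.2, 52.4 and 59.8 normalized counts in the WT libraries and 75.5, 75.0 and 56.3 in the Sgo1-/+ libraries and Tcf7l1 70.5, 67.6 and 42.6 normalized counts in the WT libraries and 43.7, 41.5 and 25.6 in the Sgo1-/+ libraries. For Tcf7l1 the lowest library was Sgo1-/+ replicate 3, which lay in the middle for Tcf7, unlike Tcf7l2 and Lef1. Calb1, which encodes calbindin, had 5127, 1505 and 2062 normalized counts in the WT libraries and 1781, 2145 and 1485 in the Sgo1-/+ libraries. WT replicate 1 was on top and Sgo1-/+ replicate 3 lowest, as for its relative Calb2. Unlike for Calb2, the groups overlapped, and the lowest value was close to that of WT replicate 2. Calb1 also stands on the list of Purkinje cell genes.

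The wider Wnt and beta-catenin pathway has Tcf7l2 and Lef1 at its DNA-binding end. Of 19 genes of the pathway 18 were tested and 0 were called, 10 with a log2 fold change above 0 and 8 below, and 0 had an unadjusted p under 0.05. Their median log2 ratio lay between −0.02 and 0.06 in all 6 libraries, with members going both ways. WT replicate 1 was lowest for 8 and highest for 5 of the 18, and the summed normalized count of the list was 19632 there and 22769.7 to 24843 in the other 5. Single genes spanned from 1.12-fold for Ctnnb1 to 7.35-fold for Notum, a secreted inhibitor named after its value was seen, between their lowest and highest library. Ctnnb1, beta-catenin itself, had 5623 to 6295 normalized counts, and Csnk1a1, a kinase that marks it for decay, had 3189 to 3890.2. Tle1, a corepressor of LEF/TCF factors, was the one gene of the 18 without overlap, beside 6.81% of all genes tested in either direction. It had 388, 443 and 494 normalized counts in the WT libraries and 538, 559 and 514 in the Sgo1-/+ libraries. Its log2 fold change was 0.28 (SE 0.124, adjusted p = 0.9999, edgeR).

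Markers of other regions also differed in Sgo1-/+ replicate 3, where the thalamic genes were high. Of 9 hippocampus genes tested, 7 were highest in that library, with a median log2 ratio of 1.48. The list includes Prox1, which the thalamus uses as well. Fibcd1, a gene of the CA1 field, had 60.4, 171 and 197 normalized counts in the WT libraries and 140.1, 156 and 477 in the Sgo1-/+ libraries. Wfs1, the most abundant gene of the list, went the other way, with 1085 normalized counts in Sgo1-/+ replicate 3 and 2352 and 2374 in the other two Sgo1-/+ libraries, so the summed normalized count of the 10 genes, 2795, was within the 1361 to 2924 of the others. Of 8 choroid plexus genes, 6 were highest in Sgo1-/+ replicate 3 and 2 in WT replicate 1. Ttr, the transthyretin gene of that epithelium, had 20028, 6757 and 349 normalized counts in the WT libraries and 815, 113 and 21819 in the Sgo1-/+ libraries, so both libraries were high and WT replicate 2 was intermediate. No gene of these lists was at 0 in all 6 libraries.

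Oligodendrocyte genes followed the same pair of libraries. Their summed normalized count was 127696 in WT replicate 1 and 115022 in Sgo1-/+ replicate 3, and 45074 to 66029 in the other 4. The same pair of libraries was on top for Tcf7l2, and the part of these genes in its level was not tested. Hypothalamus genes in Sgo1-/+ replicate 3 had a median log2 ratio of −1.87 for the 6 tested and a summed normalized count of 194 for the 11 on the list, against 334 to 1106 in the others. Hcrt of that list, singled out after its values were seen, was removed by the filter and went the other way, with 101 normalized counts in Sgo1-/+ replicate 3 against no more than 8.11 elsewhere. Habenula genes, which mark the nucleus next to the thalamus, went both ways in Sgo1-/+ replicate 3, from a log2 ratio of −1.80 for Chat to 0.84 for Chrnb3 over the 7 tested (the ends of the range, named after their values were seen), and 0 of them were highest there. Their log2 fold change was above 0 for 4 and below for 3, with a median of 0.09. Chrna3, a nicotinic receptor subunit of the habenula, was the gene of that list without overlap, beside 6.81% of all genes tested in either direction. It had 32.2, 17.1 and 16.2 normalized counts in the WT libraries and 7.95, 4.05 and 8.19 in the Sgo1-/+ libraries. Its log2 fold change was −1.68 (SE 0.461, unadjusted p = 0.00850, adjusted p = 0.9999, edgeR).

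Most cortex and all striatum genes were lowest in WT replicate 1, with median log2 ratios of −2.16 and −2.67, while in Sgo1-/+ replicate 3 they were at 0.20 and −0.42. Of 11 genes of medulla and brain stem, 2 were tested, and both were highest in WT replicate 1. The summed normalized count of these 11 genes was 1771 there and 32.5 to 44.0 in the other libraries. The methods list cerebellum and medulla as left out of the tissue, and the source of these counts was not tested. The median log2 ratio of endothelium genes was 0.03 in WT replicate 1 and −0.04 in Sgo1-/+ replicate 3. Groups did not overlap for Flt1, Slco1a4 and Mylk, beside 6.81% of all genes tested in either direction. Flt1, a receptor for the growth factor VEGF, had a log2 fold change of 0.12 (SE 0.0944). Slco1a4, a transporter of the blood-brain barrier, was at −0.20 (SE 0.104), and the smooth muscle kinase gene Mylk at 0.38 (SE 0.195). No gene of the 14 lists for other regions and cell types was called by edgeR's test after adjustment, where 4 of the genes tested had an unadjusted p under 0.05. The part of these lists in the levels of the thalamic genes was not tested.

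**Figure D5:**
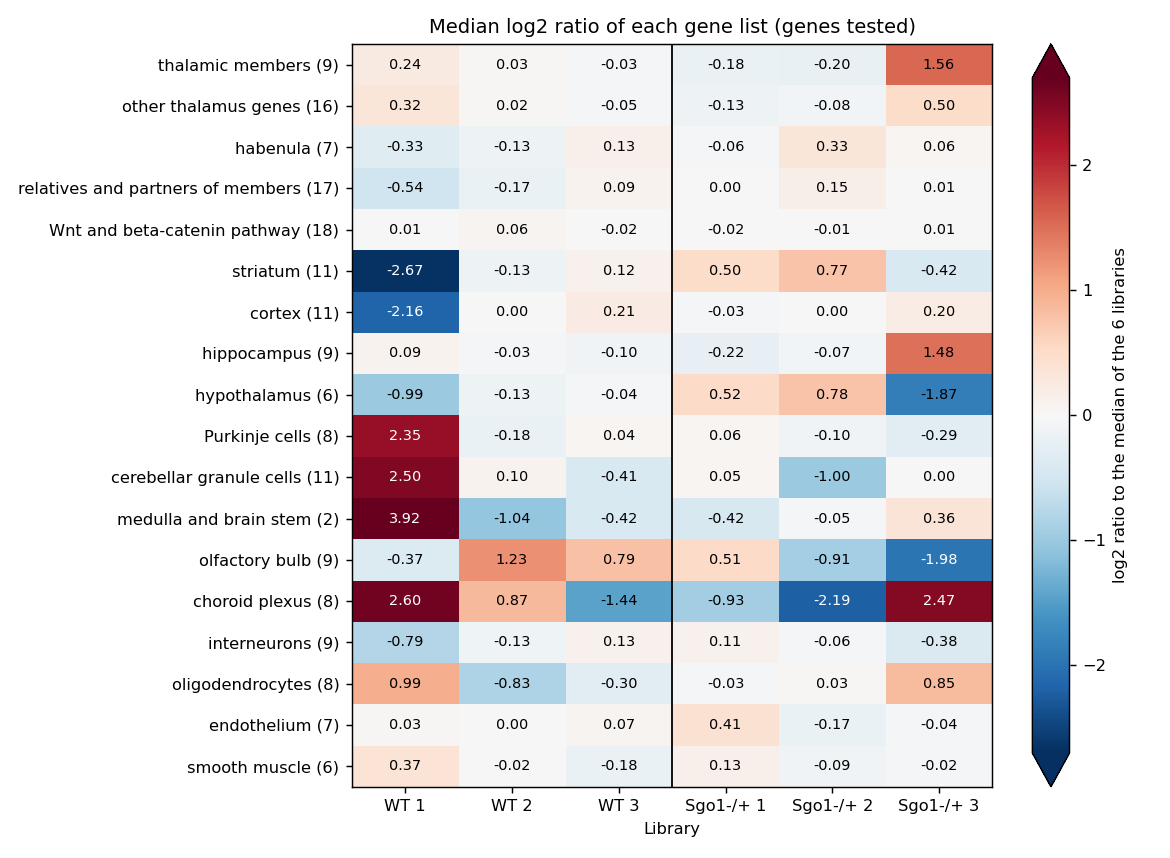
Median log2 ratio to the 6-library median of each gene list (number of genes tested in brackets) in each library, with WT left of the line and Sgo1-/+ right of it. Thalamic members (1.56), hippocampus (1.48) and choroid plexus (2.47) are high in Sgo1-/+ replicate 3, and the medians of Purkinje, granule cell and brain stem genes are high in WT replicate 1.

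Genes with a pattern most like the members were ranked by the root-mean-square difference between their 6 log2 ratios and the median profile of the 9 genes. Of the members themselves, Ntng1 (0.200) and Rgs16 (0.249) lay nearest to that profile and Calb2 (1.47) farthest. Among 1733 other genes with a mean of at least 100 normalized counts and a largest log2 ratio at least 0.5 times that of the profile, the nearest 8 included Atp6v0c, Sh3d19, Tgfb2, Nrp1, Tmem98, Myo19 and Galnt9, at 0.215 to 0.346 over 6 libraries. Atp6v0c, a subunit of the proton pump of lysosomes and synaptic vesicles, had 381, 439 and 373 normalized counts in the WT libraries and 373, 436 and 1415 in the Sgo1-/+ libraries. Nrp1, a receptor for semaphorins on growing axons, had 318, 327 and 325 normalized counts in the WT libraries and 312, 328 and 594 in the Sgo1-/+ libraries. In both genes Sgo1-/+ replicate 3 alone stood out, and it was the highest library for all those named. None of these belonged to a list used here. The profile is mainly 1 library above the other 5, so likeness to it rests on that library.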

How the data were processed

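Brain RNA libraries of 3 WT and 3 Sgo1-/+ mice were analysed. The authors aligned paired reads to mouse mm10 in Strand NGS and deposited estimated counts per Ensembl gene, without normalization; the counting rule and strand use are not given in the sources used here. The authors' normalized and fold change columns (log2, signed, absolute and direction) were not used. Columns were matched to groups by the deposited comparison and to replicates by their number within each run, and sex-linked genes were at the levels of the labelled sex in all 6 libraries.

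The members and gene lists were chosen with earlier results of these data known. Estimated counts were rounded and fitted with edgeR 4.0.16 (TMM, default filter, quasi-likelihood, Benjamini-Hochberg, threshold 0.05). SEs were taken as the absolute log2 fold change over the root of the F statistic. P-values set the difference between the groups, in which genotype and run cannot be told apart, against the spread between these mice. Normalized counts are counts over each library's effective (TMM) size, rescaled to the mean size. Log2 ratios used a floor of 3 counts. Exon lengths came from GENCODE vM21 of the same build, which held 36308 of the 38087 gene IDs. Some genes stand on 2 lists. Alternatives were DESeq2 1.42.0, limma 3.58.1 on log2 DESeq-normalized counts plus 1, DESeq2 size factors, other filters, sex, the replicate number as a block, and each library left out. The default fits of edgeR, DESeq2 and limma were first tested on simulated data with less spread between libraries than these mice showed. The other fits were not tested in this way. Named genes were the members, in each list the most abundant per kb and those without overlap, and the 8 nearest in pattern, and some genes that this rule names are not reported here. Total counts of 11123917 to 12505561 per library leave up to 3 counts undetected.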

Additional observations from a re-analysis of the deposited data

How the results depend on the processing

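The median log2 fold change of the 9 thalamic neuron genes was 0.54 with all libraries and between 0.40 and 0.72 under the alternatives that kept all 6 libraries, at both ends with a covariate (sex) or a block. With each library left out in turn it was between −0.41, without Sgo1-/+ replicate 3, and 0.82, without WT replicate 1. The number of genes called was 0 in edgeR's quasi-likelihood test, 3 in DESeq2's Wald test and 0 to 1 with each library left out, where the 1 gene came without Sgo1-/+ replicate 2 and was no member; the cause was not tested. Of the 16 other thalamus genes, 0 were called under each alternative run. The deviations of same-numbered libraries from their group means had r of −0.146, 0.0140 and −0.207 across genes. With 3 libraries per group, this cannot decide whether the numbers pair the mice. With the replicate block the median was 0.40 and 0 genes were called. Of 126 recomputed member fold changes, 6 moved by more than the SD between replicates, all in fits without Sgo1-/+ replicate 3. That SD included Sgo1-/+ replicate 3 itself and is a loose limit. Tcf7l2 (0.36 to −0.44) and Rgs16 (0.54 to −0.07) changed sign without that library and were not counted as moved. Of 162 recomputed log2 ratios in single libraries, 0 passed the same loose limit. With a mean of at least 300 normalized counts asked, 3 of the 8 nearest genes were kept, the 3 of the 8 with such a mean. Left-out fits leave 2 libraries in a group, and 3 against 3 mice limit the precision.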
